A study of Homo sapiens with 9 samples.

Results

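The open chromatin regions of the long arm of human chromosome 5 (5q) were examined in the VCaP prostate cancer line and in VCaP16, its derivative resistant to enzalutamide (ENZ). Overlapping peaks (1 bp or more) of 9 ATAC-seq libraries were joined into regions. Members were chosen by the peak calls themselves and by position: 2 or more of the 3 libraries of any group had to call the region, and its midpoint had to lie at 50 Mb or beyond on hg19. This gave 2658 regions on 5q, or 4.02% of the 66108 regions of the genome formed in the same way. The short arm (5p, midpoint below 46 Mb) gave 855 regions and served as the contrast, and 13 regions between 46 and 50 Mb belonged to neither arm. Because the calls chose the members, the calls of single members are described below without a test.

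There were 3 groups with 3 libraries each. VCaP cells received either the solvent (VCaP_DMSO) or 10 µM ENZ for 96 h (VCaP_ENZ), and the resistant cells of the group VCaP16 were kept in 16 µM ENZ. All were labelled WT for genotype and were grown in DMEM with serum. There was no VCaP16 group without the drug, so the line and its medium cannot be told apart, and the labels do not say how the line was derived or whether it is 1 clone. Nothing in the labels says that the 3 libraries of a group came from separate cultures. The p-values therefore measure the spread between these libraries, which may be technical.

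In ATAC-seq the transposase Tn5 cuts and tags DNA that nucleosomes leave exposed, so peaks mark promoters, enhancers and other accessible sites. Enzalutamide blocks the androgen receptor, the hormone-driven transcription factor on which most prostate cancers depend. The long arm of chromosome 5 carries the tumour suppressor gene APC, the chromatin remodeller gene CHD1, which prostate tumours often lose, the glucocorticoid receptor gene NR3C1 and the clustered protocadherin genes. VCaP is known for a 5q that was broken and rejoined at many places. The peak lists hold neither copy number nor breakpoints, and no gene was assigned to a region because no hg19 annotation was used here.

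The lists held 53646 to 68921 peaks per library, the longest being VCaP16 replicate 3 and the next VCaP_ENZ replicate 2 with 61744. Depth is unknown, since reads were not counted in them, and a longer list calls more of any set of regions. For this reason the comparisons below rest on shares within a library and on the order of scores within a library. The score is the authors' own, on a −log10 scale, and whether p-values or q-values lie under it is not stated. Tests compared the 3 VCaP16 libraries with the 6 VCaP libraries (VCaP_DMSO and VCaP_ENZ together), or all 3 groups, by two-sided exact permutation over libraries. Their smallest possible p-values are 0.0119 and 0.00357. A pair of groups of 3 cannot go below 0.1.

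The members on 5q were short, separate sites. Their median width was 625.5 bp, with quartiles of 451 and 882 bp and a range of 171 to 3131 bp, and together they covered 1912 kb. The median distance to the next member was 22.5 kb, and 12.3% lay within 5 kb of the next. On 5p the median width was 617 bp and the median distance 22.01 kb. Over all other regions of the genome these were 640 bp and 20.2 kb, so members were spaced a little more widely than regions elsewhere.

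Of the 2658 members, 1280 (48.2%) were called in all 9 libraries, against 45.0% on 5p and 50.0% over all other regions. The members called in all 9 had a median width of 848 bp, and those called in fewer had 478 bp. The same split held for the score. Placed from the top of the score order of the consensus regions each library called, members called in all 9 lay at a median of 31.6% and the others at 80.0%. The variable members were thus mostly narrow regions with low scores. Over all other regions the split was alike, at 837 and 488 bp and at 33.2% and 80.3%. A merged region can only widen as more libraries add a peak, and a weak region more easily misses a call. Part of both splits is therefore built in. The 10% of the score order nearest the top took in 7.52% of the members, 7.13% of the 5p regions and 7.47% of all other regions.

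The members were unevenly placed along the arm. In bins of 5 Mb, numbered 1 to 27 from 50 Mb to the end of the arm, the most members per Mb lay in bin 27 from 180 Mb (61.9, a bin cut short by the end of the chromosome), bin 26 from 175 Mb (40.6, 203 members) and bin 18 from 135 Mb (36.8, 184 members). The fewest lay in bin 11 from 100 Mb (6.4), bin 8 from 85 Mb (6.6) and bin 7 from 80 Mb (7.2). The 3 densest bins also had the median score positions nearest the top. Among the bins with at least 20 regions called in all 9 libraries, the median score position was nearest the top at 175 Mb (33.6%), 135 Mb (35.04%) and 180 Mb (41.6%), and furthest from it at 160 Mb (64.6%), 115 Mb (59.9%) and 155 Mb (59.0%). The longest stretches without a member were chr5:68856620-70669014 (1.81 Mb), chr5:83018442-84633346 (1.61 Mb) and chr5:103877089-105238790 (1.36 Mb).

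**Figure D1:**
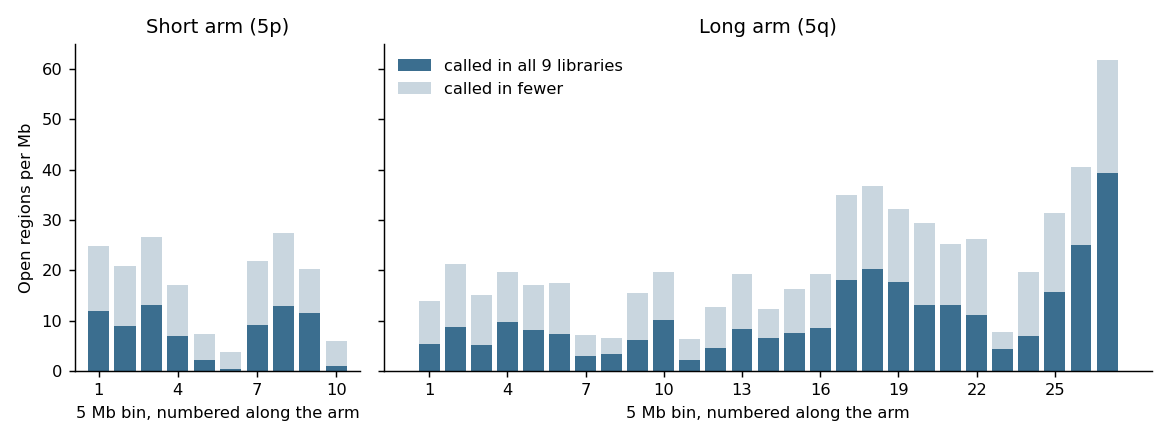
Regions per Mb in 5 Mb bins along 5p (left) and 5q (right), with bins numbered along each arm on the x axis and bars split into regions called in all 9 libraries (dark) and in fewer (light). On 5q the bars range from 6.4 per Mb in bin 11 to 61.9 per Mb in bin 27, which the end of the chromosome cuts short.

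The 10 best placed members were picked among those called in all 9 libraries, so their calls in every library are built in. The best placed was chr5:134259585-134260432. Its scores were 1229, 1277 and 1130 in VCaP_DMSO, 1144, 1343 and 1297 in VCaP_ENZ and 1125, 1195 and 1152 in VCaP16. A neighbour at chr5:134262484-134263010 had scores of 663 to 825. These 2 stood far above the others of the 10. Whether their sequence occurs elsewhere in the genome was not tested, and no filter for regions prone to mapping artefacts was applied here. Their scores alone therefore do not show that they are open sites. The third, chr5:151150796-151151792, had scores of 190 to 306, and the fourth, chr5:137667042-137668035, of 161 to 272. Depth is unknown, so these scores are not compared between libraries. By place in the score order, the second region lay at 0.0119% to 0.0162% from the top over the 9 libraries. The other 6 of the 10 best placed members were chr5:122758442-122759743, chr5:178986119-178987352, chr5:179285118-179286554, chr5:176943694-176944715, chr5:176778279-176779282 and chr5:95296434-95298063, with median scores of 135 to 174. Of these 10, 4 lay between 176 and 180 Mb, at the far end of the arm.

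The widest members were not all placed near the top of the score order. The widest member called in all 9 libraries, chr5:179032418-179035548 (3131 bp), had scores of 6.50 to 14.3 and a median position of 68.1%. The next, chr5:113696775-113699826 (3052 bp), had scores of 44.8 to 66.8 and a median position of 6.23%. The third was chr5:73935298-73938079 (2782 bp), with scores of 19.998 to 36.6 and a median position of 24.9%.

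The threshold at 50 Mb did not mark a change in the regions beside it. The first member inside, chr5:50006726-50007377, was called in 6 libraries with scores of 2.80 to 13.2, and the next, chr5:50175330-50176366, in 7. The nearest region outside, chr5:49962965-49964223, was called in 9 libraries with scores of 2.88 to 9.65. At the other end the last member was chr5:180710214-180710560, called in 4 libraries.

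The first comparison asked whether the arm as a whole held a different share of the open sites in resistant cells. Peaks on 5q made up 4.014%, 3.947% and 3.998% of each VCaP_DMSO library's peaks, 4.035%, 4.041% and 4.047% in VCaP_ENZ and 3.930%, 3.910% and 3.983% in VCaP16. The VCaP_ENZ libraries were highest and close together, and VCaP16 replicate 3 lay within the range of VCaP_DMSO. With n = 3 in each group, the means and SDs were 3.99% ± 0.0352, 4.04% ± 0.00616 and 3.94% ± 0.0377. The share in VCaP16 minus that in the 6 VCaP libraries was −0.0727 percentage points (two-sided exact permutation p = 0.0357). It did not pass the adjustment over the 8 measures of the arm compared this way (Benjamini-Hochberg adjusted p = 0.127 from the exact test), nor did the 3-group test over 9 measures (exact permutation p = 0.0393, adjusted 0.118). Among whole chromosomes, 4.35% (1 of 23, chromosome 9) had a p as low. VCaP_ENZ and VCaP_DMSO did not overlap, with a difference of 0.0546 points, and exact permutation gave the smallest p possible for a pair, 0.1. VCaP16 and VCaP_ENZ did not overlap either, at −0.1 points.

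The unadjusted call on the share was lost, at exact permutation p of 0.0536 to 0.107, when any one of VCaP_DMSO replicates 1 and 3, VCaP_ENZ replicates 1, 2 and 3 or VCaP16 replicates 1 and 2 was left out, while its direction held. It was kept without VCaP_DMSO replicate 2 (p = 0.0179) and without VCaP16 replicate 3 (p = 0.0357), both by exact permutation. The 3-group p rose to between 0.0607 and 0.0821 (exact permutation) without VCaP_ENZ replicate 1, 2 or 3 or VCaP16 replicate 1 or 2.

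**Figure D2:**
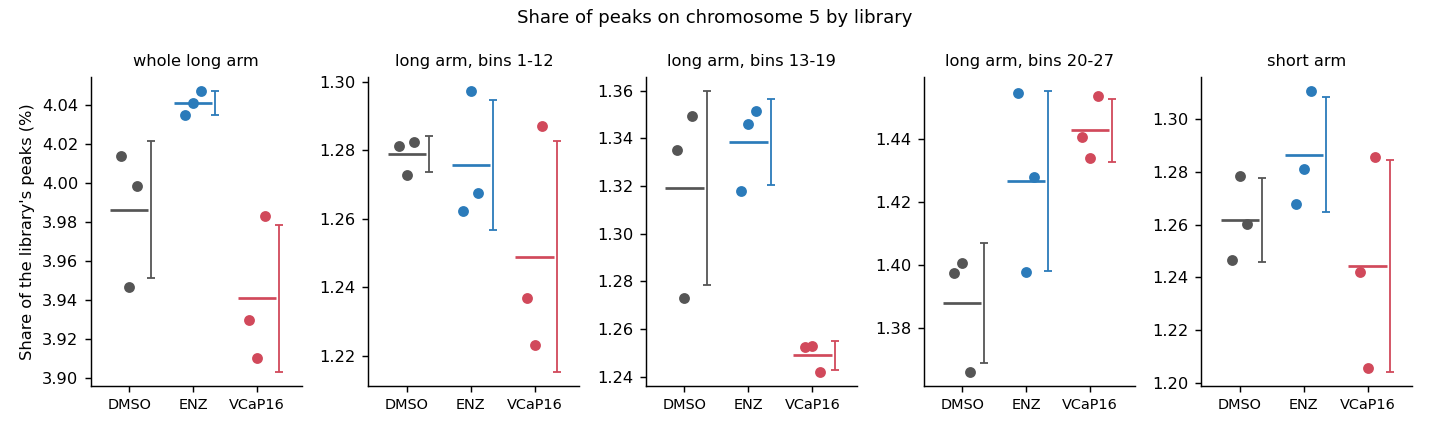
Share of each library's peaks (%) on all of 5q, in 3 stretches of it (bins 1 to 12, 13 to 19 and 20 to 27, that is from 50, 110 and 145 Mb) and on 5p; points are libraries, lines are group means and bars are SDs, and the y axes do not start at 0. In bins 13 to 19 the 3 VCaP16 points lie at 1.24% to 1.25%, below the 6 VCaP points at 1.27% to 1.35%.

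A second measure, the share of merged regions called, used every region that any library called (3897 on 5q, 1258 on 5p, 94773 in the genome), so that the groups did not choose them. On 5q it averaged 55.4% in VCaP_DMSO, 57.2% in VCaP_ENZ and 60.7% in VCaP16, following the length of the lists. The difference of VCaP16 from VCaP was 4.46 percentage points, inside the spread (exact permutation p = 0.202), and 0.259 points without VCaP16 replicate 3. With all lists cut to equal length the direction turned, at −0.779 points (exact permutation p = 0.0357). Set against all other regions of the same library, 5q was called less often in all 9. The difference was −1.59, −2.50 and −1.64 points in VCaP_DMSO, −1.01, −0.924 and −0.816 in VCaP_ENZ and −2.89, −3.14 and −2.43 in VCaP16. VCaP_ENZ was nearest to the rest of the genome and overlapped with no other group, while VCaP16 replicate 3 lay just inside the range of VCaP_DMSO.

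Over the 3 groups these values differed beyond the spread between libraries (exact permutation p = 0.00714, adjusted 0.0321 over 9 measures). VCaP_DMSO averaged −1.91 ± 0.514 points, VCaP_ENZ −0.917 ± 0.0973 and VCaP16 −2.82 ± 0.357 (SD over 3 libraries). Of the 23 chromosomes tested against the rest in the same way, 4.35% (1 of 23, chromosome 5 itself) had a 3-group p as low. VCaP16 against the 6 VCaP libraries gave −1.41 points (exact permutation p = 0.0357, adjusted 0.127), and the exact permutation p spanned 0.0179 to 0.0714 with 1 library removed. Leaving out any of VCaP_DMSO replicates 1 and 3, the 3 VCaP_ENZ replicates or VCaP16 replicates 1 and 2 took that p above 0.05, and the 3-group p stayed at 0.0214 or less in every case.

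The long arm did not part from the short arm. The ratio of 5q to 5p peaks averaged 3.16 in VCaP_DMSO, 3.14 in VCaP_ENZ and 3.17 in VCaP16, and VCaP16 differed from VCaP by 0.0178 (exact permutation p = 0.667). The 5q minus 5p difference in the share of merged regions called moved by −0.0746 percentage points (exact permutation p = 0.929). The median width of 5q peaks was 427, 420.5 and 426 bp in the same order of groups (difference 2.42 bp, exact permutation p = 0.833). These tests do not show that the arms act alike, only that no difference between them passed.

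Peak positions on the arm were more alike within groups than between them. The Jaccard index, the bases shared by 2 lists over the bases in either, averaged 0.600 within groups and 0.583 between groups (difference 0.0169, exact permutation p = 0.00357, adjusted 0.0321 over 9 measures, the smallest p the design allows). VCaP_DMSO libraries averaged 0.611 among themselves, VCaP_ENZ libraries 0.599 and VCaP16 libraries 0.591. Between groups it was 0.593 for VCaP_DMSO with VCaP_ENZ, 0.578 for VCaP_DMSO with VCaP16 and 0.579 for VCaP_ENZ with VCaP16. The spread of single pairs was wider than these gaps, from 0.557 for VCaP_DMSO replicate 3 with VCaP16 replicate 3 to 0.625 for VCaP_DMSO replicate 1 with VCaP_ENZ replicate 2. Whole chromosomes behaved in a similar way, with differences of 0.0106 to 0.0183. Of these, 43.5% (10 of 23, chromosome 5 among them) had a p as low as that of 5q.

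Score order was then compared over the regions called in all 9 libraries, 33033 in the genome and 1280 on 5q. A region's score position is its place in the score order of these regions in a library, where 0% is the highest score and 100% the lowest. The median position of the 5q regions averaged 49.0% in VCaP_DMSO, 48.8% in VCaP_ENZ and 50.0% in VCaP16. VCaP16 lay 1.06 points further from the top than VCaP (exact permutation p = 0.0476, adjusted 0.127 over 8 measures), and the 3-group test did not pass (exact permutation p = 0.15). Leaving out any single library took the p of VCaP16 against VCaP to between 0.0714 and 0.571, all by exact permutation. The difference between the arms in this measure was 0.469 points (exact permutation p = 0.714).

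The arm was then compared bin by bin. For each bin the share of a library's peaks, the median score position and the median score deviation were compared between VCaP16 and VCaP over all bins of the genome. The score deviation is a region's position minus its mean over the 9 libraries, so that a positive value means a lower score than usual for that region. It was added after the bins had been seen, because it takes out the difference in level between regions. No bin passed after adjustment over the genome. The smallest adjusted p on 5q was 0.399 for the peak share, 0.279 for the score position and 0.186 for the score deviation, all from the exact permutation test with Benjamini-Hochberg adjustment. The counts of bins without overlap between VCaP16 and VCaP are therefore a description.

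For the peak share, 0 of the 27 bins had all VCaP16 libraries above all VCaP libraries (1.93% of the 570 bins of the genome) and 1 had them all below (2.98% of the bins of the genome). That bin ran from 120 to 125 Mb. It held 0.139%, 0.130% and 0.130% of the peaks in VCaP_DMSO, 0.135%, 0.130% and 0.143% in VCaP_ENZ and 0.109%, 0.117% and 0.126% in VCaP16. All 3 VCaP16 values were below the lowest VCaP value. The means were 0.117% ± 0.00871 (n = 3) and 0.134% ± 0.00577 (n = 6), a ratio of 0.873 (exact permutation p = 0.0119, adjusted 0.399). Without VCaP16 replicate 1 the exact permutation p of this bin was 0.0714. The bins lower in this way numbered 2 to 5 without VCaP_DMSO replicate 2 (3) or replicate 3 (2) or VCaP16 replicate 1 (2), 2 (5) or 3 (3), and 3 with lists of equal length.

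This bin belonged to a run. The ratio of VCaP16 to VCaP was 0.966 at 115 Mb, 0.873 at 120 Mb, 0.910 at 125 Mb, 0.918 at 130 Mb, 0.934 at 135 Mb and 0.958 at 140 Mb, so that 6 bins in a row lay below 1. It was then above 1 in the 6 bins from 145 to 175 Mb, at 1.03, 1.02, 1.06, 1.11, 1.06 and 1.06, and below 1 again in the last 2, at 0.977 and 0.939. At 110 Mb it was 1.04. In the first 12 bins, from 50 to 110 Mb, it lay on both sides of 1, with 0.860 at 100 Mb and 1.08 at 50 Mb as the extremes. In all, 16 of the 27 bins were lower in VCaP16. On 5p all 8 tested bins were lower, with ratios from 0.909 at 15 Mb to 0.992 at 40 Mb. Bins in a row below 1 were thus not particular to 5q. The median bin difference was −0.00185 points on 5q, −0.00348 on 5p and 0.000361 over the genome.

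Joined into stretches that were chosen after the bins had been seen, and so without a test, the stretch from 110 to 145 Mb held 854 members. It joins the 6 bins below 1 with the bin from 110 Mb, whose peak share went the other way but whose score deviation, below, did not. The stretch took 1.34%, 1.27% and 1.35% of the peaks in VCaP_DMSO, 1.32%, 1.35% and 1.35% in VCaP_ENZ and 1.25%, 1.25% and 1.24% in VCaP16. The VCaP16 libraries lay close together and below all 6 VCaP libraries, the lowest of which was VCaP_DMSO replicate 2. The mean was 1.25% ± 0.00607 in VCaP16 (n = 3) and 1.33% ± 0.0301 in VCaP (n = 6), a ratio of 0.940.

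The stretches on both sides did not show this. From 50 to 110 Mb, with 859 members, the share ran from 1.22% to 1.29% in VCaP16 and from 1.26% to 1.30% in VCaP, a ratio of 0.978. From 145 Mb to the end, with 945 members, it ran from 1.43% to 1.45% in VCaP16 and from 1.37% to 1.45% in VCaP, a ratio of 1.03. On 5p the ratio was 0.977. The differences between stretches were not tested.

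Within this stretch 2 bins had score positions further from the top in all VCaP16 libraries. The bin from 125 to 130 Mb, with 43 regions called in all 9 libraries, had median positions of 53.9%, 53.1% and 44.8% in VCaP_DMSO, 47.3%, 48.8% and 45.7% in VCaP_ENZ and 65.1%, 60.7% and 55.7% in VCaP16. Every VCaP16 value was above every VCaP value. The difference of 11.6 points was the largest in this direction of the 516 bins of the genome with at least 20 such regions, where the largest in the other direction was −12.3 points, with 60.5 ± 4.68 in VCaP16 (n = 3) and 48.9 ± 3.78 in VCaP (n = 6; exact permutation p = 0.0119, adjusted 0.279). The bin from 140 to 145 Mb was the other without overlap, at 58.9%, 57.0% and 57.3% in VCaP16 against 52.8% to 56.7% in VCaP. Thus 2 of the 24 bins of 5q were further from the top and 0 nearer, where 3.29% of the bins of the genome went each way. On 5p 2 of 7 bins, from 15 and 35 Mb, were further and 0 nearer. The count of 2 became 4 without VCaP_DMSO replicate 3, 1 without VCaP16 replicate 1, 5 without VCaP16 replicate 3 and 0 with the 50% overlap.

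By score deviation the bin from 125 to 130 Mb had the largest difference of the 516 bins in either direction. Its values were −1.49, −0.70 and −1.77 points in VCaP_DMSO, −5.61, −1.21 and −4.04 in VCaP_ENZ and 5.61, 2.26 and 4.12 in VCaP16. All VCaP values were negative and all VCaP16 values positive. Deviations are taken from the mean over the same 9 libraries, so opposite signs are partly built in. The difference was 6.47 points (exact permutation p = 0.0119, adjusted 0.186). With 1 library removed it lay between 5.70 and 6.95 points.

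The other bins without overlap in score deviation were those from 70 Mb (difference 3.41 points), 110 Mb (3.04), 130 Mb (2.48) and 135 Mb (1.76). At 130 Mb the deviations were 0.41, 2.87 and 1.87 points in VCaP16 and between −1.66 and 0.04 in VCaP. At 135 Mb they were 0.39, 2.44 and 0.36 in VCaP16 and between −1.64 and 0.02 in VCaP, so the gap between the groups was narrow there. In all, 5 of the 24 bins of 5q were further from the top in VCaP16 (6.59% of the bins of the genome) and 0 nearer (4.46%). On 5p 0 of 7 bins were further and 1 nearer by this measure. Removing VCaP_DMSO replicate 3 gave 8 on 5q, removing VCaP16 replicate 1 gave 9, and there were 2 when a call had to cover 50% of a region. The sign was shared more widely, with 18 of the 24 bins of 5q above zero, a median bin difference of 1.19 points on 5q, 1.29 points on 5p and 0.240 points over the genome.

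**Figure D3:**
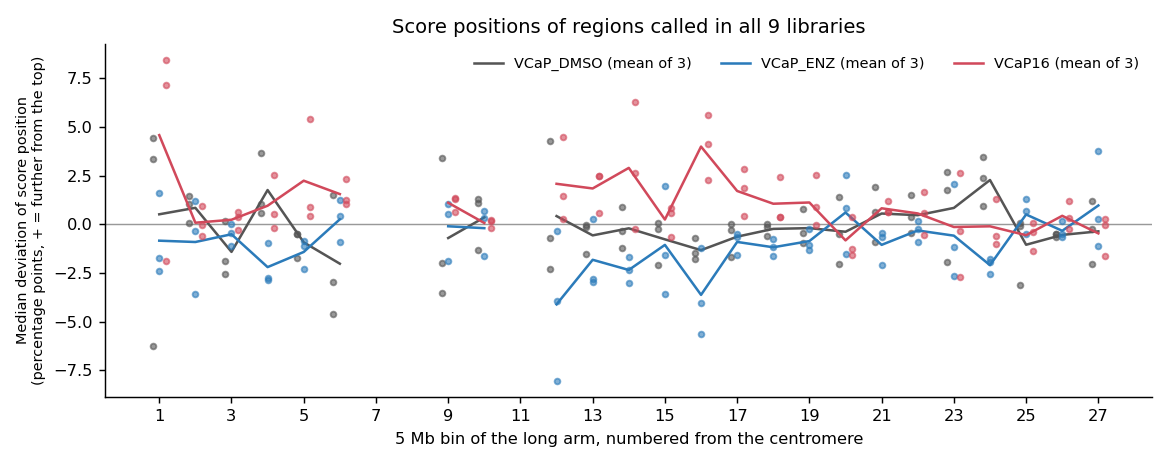
Score deviation of each 5 Mb bin of 5q by group, in percentage points, where positive values lie further from the top; points are libraries, lines join group means, bins are numbered from the centromere, and bins 7, 8 and 11 held too few regions. In bin 16, from 125 Mb, the 3 VCaP16 points lie at 2.26 to 5.61 and the 6 VCaP points at −5.61 to −0.70.

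**Figure D4:**
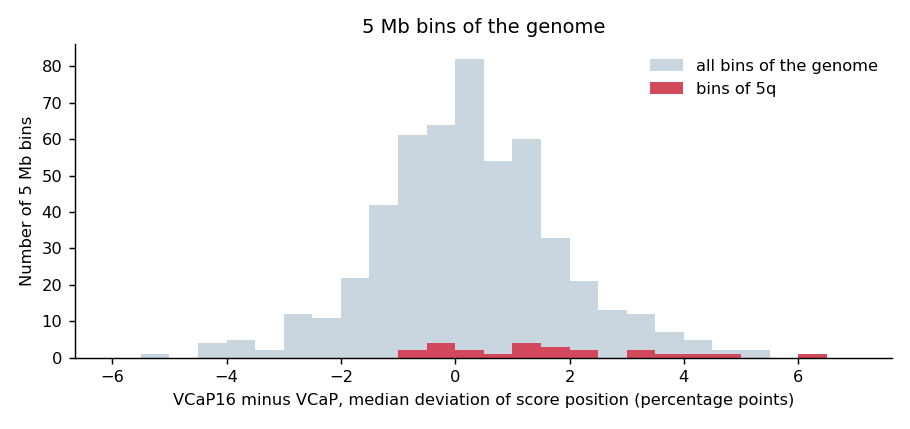
Histogram of the VCaP16 minus VCaP difference in score deviation (percentage points) over the 516 bins of the genome, with the 24 bins of 5q in red. The bin at the right end, at 6.47 points, is the 5q bin from 125 Mb, and 18 of the 24 bins of 5q lie above zero.

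The peak share and the score position of a bin were not close to one another along the arm. Across the 24 bins with both, the correlation of the ratio of peak shares with the difference in score deviation was −0.166, and 11 bins had both a ratio below 1 and a deviation above zero. The bins share the same 9 libraries, so this is a description. The group means of score position followed each other along the arm, with correlations across the same 24 bins of 0.827 for VCaP_DMSO with VCaP_ENZ, 0.863 for VCaP_DMSO with VCaP16 and 0.781 for VCaP_ENZ with VCaP16. These bins hold the same regions in every library, so a high value is built in.

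Single regions called in all 9 libraries were placed in the same way. On 5q, 61 of 1280 (4.77%) had all 3 VCaP16 positions further from the top than all 6 VCaP positions, where 3.39% of all 33033 regions did, and 30 (2.34%) had them nearer, where 3.7% did. On 5p, 20 of 385 (5.19%) lay further and 12 (3.117%) nearer, so the share further from the top was above that of the genome on both arms. By stretch of 5q, 17 of 372 (4.57%) lay further and 10 (2.69%) nearer from 50 to 110 Mb, 30 of 435 (6.90%) and 5 (1.15%) from 110 to 145 Mb, and 14 of 473 (2.96%) and 15 (3.17%) from 145 Mb on. The differences between these parts were not tested. No single region passed adjustment over the genome (smallest exact permutation p 0.0119, adjusted 0.281), though 156 regions on 5q had an unadjusted p below 0.05, with 3803 over all 33033. With 1 library removed the counts on 5q were 72 to 121 further and 35 to 59 nearer, since fewer libraries overlap less often. They passed 1.5 times the full counts without VCaP16 replicate 1 (106 and 58), replicate 2 (109 and 59) or replicate 3 (121 and 56), and for the nearer regions also without VCaP_ENZ replicate 3 (46). With a call defined as 50% of a region they were 33 and 13.

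The median score deviation of the stretch from 110 to 145 Mb was 1.12, 2.16 and 1.24 points in VCaP16, −0.668, −0.604 and −0.132 in VCaP_DMSO and −1.13, −1.76 and −1.17 in VCaP_ENZ. The 3 groups did not overlap, with VCaP_ENZ nearest the top and VCaP16 furthest from it. The stretch was chosen after its bins had been seen, so this is a description and was not tested. The difference of VCaP16 from VCaP was 2.42 points there, 1.43 from 50 to 110 Mb, 0.300 from 145 Mb on, 0.768 on 5p and 0.132 over the genome.

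The regions with the largest shifts were picked after their values were seen. Their part in these medians was not tested. The region chr5:123996976-123997965 lay at 6.26%, 9.08% and 4.20% in VCaP_DMSO, 9.91%, 9.96% and 6.42% in VCaP_ENZ and 50.7%, 36.5% and 41.2% in VCaP16. It was among the 10% of regions with the highest scores in every VCaP library and in the middle of the order in VCaP16. Nearby, chr5:124244286-124245122 averaged 56.9% in VCaP and 93.0% in VCaP16, and chr5:126984631-126985912 averaged 40.4% and 78.2%. The remaining 2 of the 5 largest were chr5:175341003-175341947, from 34.0% to 72.6%, and chr5:106869494-106870415, from 41.9% to 77.0%.

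The opposite shift was largest at chr5:95192897-95193465. Its positions were 62.4%, 91.2% and 55.3% in VCaP_DMSO, 93.9%, 74.4% and 94.7% in VCaP_ENZ and 17.0%, 14.0% and 19.1% in VCaP16. The VCaP16 libraries agreed closely and lay far above the rest in the score order. Next came chr5:77248587-77249308 (mean 81.9% in VCaP, 36.6% in VCaP16), chr5:136321415-136322037 (64.8% and 21.0%), chr5:160296806-160297576 (79.3% and 37.4%) and chr5:66563918-66564926 (71.9% and 38.1%). One of these, at 136 Mb, lay inside the stretch from 110 to 145 Mb.

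Calls of members were then counted for each pair of groups, taking regions called in every library of one group and in none of the other. With 10 µM ENZ, 24 members (0.903%) were gained over the solvent, where 0.936% of all consensus regions were, and 21 (0.790%) were lost, where 0.799% were. Both shares sat near the background of the genome. Removing any 1 of these 6 libraries raised the counts, to 36 to 74 gained and 32 to 53 lost. For counts with libraries removed, here and below, the share over all consensus regions was not computed. They therefore do not measure a change of 5q against the genome. On 5p 16 regions (1.87%) were gained and 7 lost. In VCaP16, 6 of the 24 gained on 5q were called 3 times and 4 were not called. Of the 21 lost, VCaP16 called 3 in every library and 6 in no library.

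The gained region with the best score rank was chr5:165473068-165473447, a 380 bp region with scores of 14.0, 16.1 and 13.05 in VCaP_ENZ and of 15.9 in each of VCaP16 replicates 1 and 3. The next were chr5:95059136-95059747 and chr5:53073755-53074135. Among the lost regions, chr5:57994823-57995615 had scores of 30.1, 15.1 and 21.8 in VCaP_DMSO and no call in the other 6 libraries. The region chr5:170050527-170051001 was called in all solvent-treated and resistant libraries, with scores of 15.7, 14.6 and 21.8 in VCaP_DMSO and 13.1, 11.96 and 25.3 in VCaP16, and was not called in VCaP_ENZ. It was followed by chr5:175024827-175025120, called in VCaP_DMSO at 15.2, 12.7 and 7.72 and in VCaP16 replicate 1 at 3.78.

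Against the solvent, VCaP16 gained 70 members (2.63%), where 2.33% of all regions were gained, and lacked 26 (0.978%), where 0.762% were lacking. On 5p the counts were 19 (2.22%) and 6. Of the 70 gained, 20 were called in 2 and 6 in all 3 VCaP_ENZ libraries, and 19 in none. By place, 19 lay between 50 and 110 Mb, 23 between 110 and 145 Mb and 28 beyond, and of the 26 lacking 9, 11 and 6. The stretch from 110 to 145 Mb thus held regions of both kinds. With all lists cut to equal length 52 were gained and 42 lacking. With any 1 of the 6 libraries removed the counts were 92 to 139 and 34 to 67, and 94 and 67 without VCaP16 replicate 3, the longest list.

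Among these, chr5:132975861-132976445 had scores of 36.0, 24.3 and 36.8 in VCaP16, 8.57 and 6.25 in VCaP_ENZ replicates 2 and 3 and no call with the solvent. At chr5:157683009-157683403 the scores were 24.1, 10.4 and 28.5 in VCaP16 and 5.87 in 1 VCaP_ENZ library. The region chr5:168451237-168451895 was called in all 6 libraries with the drug, at 8.92 to 18.1, and in none without it. In the reverse direction, chr5:135458959-135459406 had scores of 17.7, 9.48 and 15.8 with the solvent and 3.16 in VCaP_ENZ replicate 1. At chr5:101051176-101051737 the scores were 20.1, 12.6 and 9.52 with the solvent and 3.16, 4.02 and 4.32 in VCaP_ENZ, with no call in VCaP16. The region was picked for that missing call. Depth is unknown, so its scores are not ordered between groups.

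Between the 2 groups in ENZ, VCaP16 had 38 members (1.43%) that VCaP_ENZ lacked, where 1.62% of all regions had this pattern, and VCaP_ENZ had 16 (0.602%) that VCaP16 lacked, where 0.588% did. These groups differ in dose and in time in the drug as well as in the line. With any 1 of their libraries removed the counts were 56 to 96 and 24 to 55. The strongest of the 16 by rank was chr5:158557619-158558218, with scores of 6.05 to 11.9 over the 6 VCaP libraries. The next, chr5:134271575-134272072, was called in the 3 VCaP_ENZ libraries alone, at 6.86, 3.22 and 7.27.

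Against all 6 VCaP libraries, VCaP16 alone had 19 members (0.715%), where 0.787% of all regions had this pattern, and lacked 5 (0.188%), where 0.126% did. On 5p these were 4 and 2. The 19 were led by chr5:96837091-96837462 with scores of 8.27, 14.0 and 17.3, chr5:80173465-80173988 with 12.4, 13.9 and 21.99 and chr5:171470966-171471390 with 7.80, 11.5 and 14.0. In each of these 3 the highest score was that of the longest list. When a call had to cover 50% of a region, the first of them kept the pattern and the other 2 did not. The median score position of the 19 in VCaP16 was 77.9%. The 5 lacking were led by chr5:158557619-158558218, chr5:150835950-150836407 (5.65 to 11.8) and chr5:143039100-143039680 (4.14 to 15.5). None of the 5 kept the pattern when a call had to cover 50% of a region, and without VCaP16 replicate 3 there were 18. The 19 became 47, 53 and 34 without VCaP16 replicate 1, 2 or 3 and 30 without VCaP_ENZ replicate 2.

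**Figure D5:**
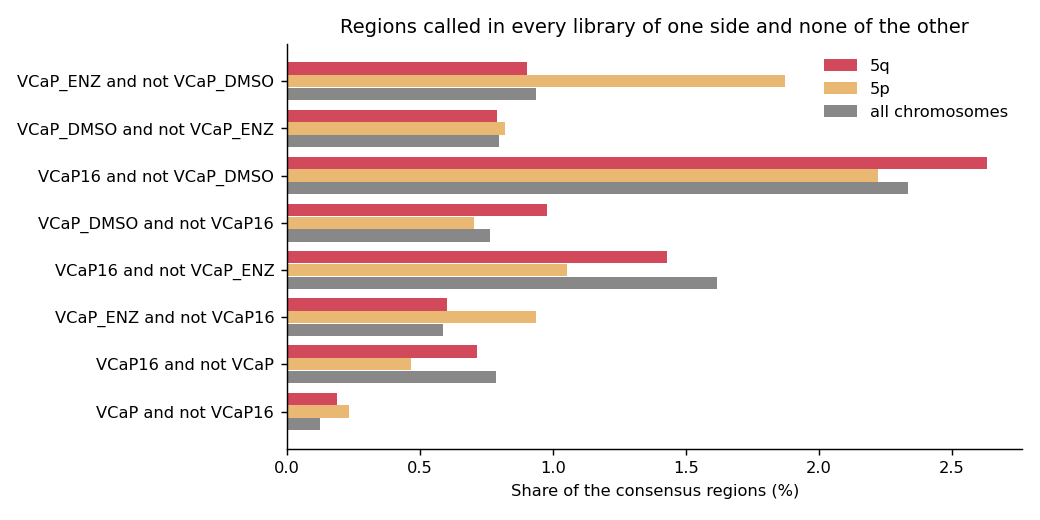
Percent of 5q members, of 5p regions and of all consensus regions called in every library of one side and none of the other, for the 4 comparisons in both directions. The 5q bars stand near those of the genome, with the highest at 2.63% against 2.33%.

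The variable members were spread over the arm. Called shares per bin ran from 65.7% to 87.1% in VCaP_DMSO, from 68.4% to 86.3% in VCaP_ENZ and from 64.6% to 87.0% in VCaP16, each a mean over the 3 libraries of a group. From 110 to 145 Mb the means of VCaP_DMSO and VCaP16 were 69.4% and 80.6% at 110 Mb, 75.4% and 82.5% at 115 Mb, 80.2% and 77.4% at 120 Mb, 76.7% and 75.7% at 125 Mb, 79.2% and 78.9% at 130 Mb, 77.4% and 81.0% at 135 Mb and 80.3% and 83.9% at 140 Mb. VCaP16 was thus higher at both ends of this stretch and not in the 3 bins between 120 and 135 Mb. From 145 Mb on the bins were at 74.1% and 82.1%, 76.2% and 85.4%, 69.5% and 81.4%, 70.1% and 86.3%, 69.0% and 81.6%, 73.5% and 81.7%, 80.6% and 87.0% and, in the last, 87.1% and 85.6%. VCaP16 was the higher in all of these but the last. Over all consensus regions the called share was 74.7% to 83.3% in the 6 VCaP libraries and 79.7%, 79.8% and 89.1% in VCaP16. The calls chose the members, so no test was made, and the part of list length in these bin shares was not tested. Over the whole arm, the VCaP16 minus VCaP difference in the share of merged regions called was 4.46 points. It was −0.779 points with lists of equal length.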

How the data were processed

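The authors deposited 1 peak list per library, on hg19, with a score read as a −log10 value of either p or q, because none was below 2.00. Per the submitters' processing notes the tools were HOMER 3.12, MACS2 2.2.7.1 and BWA 0.7.15-r1140, with no roles named; read filters and a Tn5 shift are not given in the sources used here. Per the labels, the protocol covers a bulk preparation from fixed cells and also a single-cell one; the lists were taken as bulk. Depth is unknown, and scores were used only to order or filter peaks within a list. Peaks on chromosomes 1 to 22 and X were used, and 130 to 183 per list lay elsewhere. A call needed 1 bp of overlap. Bins needed a mean of 20 peaks, or 20 regions called in all 9 libraries.

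Exact permutation (84, 280 or 20 splits) and Benjamini-Hochberg adjustment were run in Python 3.11.15 with numpy 2.4.6, pandas 2.3.3 and scipy 1.17.1, and tested on simulated data. Named regions are the 3 best by median score rank in each pattern, the ends of the arm and the longest gaps, plus regions marked as picked later. The 10 best placed and the 3 widest were both taken from members called in all 9 libraries. The members, lists and tests were chosen with earlier results of these data known. Added after seeing the data were the score deviation, the stretches, single regions by direction, the chromosomes against the rest and a run without the 2 longest lists. Sequence and genes of the regions were not analysed here.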

Additional observations from a re-analysis of the deposited data

How the results depend on the processing

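Of 629 values recomputed under other settings, 470 kept their direction and side of the threshold (counts within 1.5 times), 106 moved, 33 fell short of the threshold and 20 reversed; the cause was not tested except where fewer libraries or calls set it. The 20 reversals concern measures that had not passed their tests. Depth is unknown and limits what the lists can show.

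With a minimum score of 5, the VCaP16 minus VCaP difference was −0.0215 for the 5q to 5p ratio (p = 0.702), −0.556 for the 5q minus 5p score position (p = 0.738) and −7.83 bp for peak width (p = 0.571), all by exact permutation. Bins of peak share without overlap were 1 higher and 3 lower, bins of score position 1 higher, and regions lacking in VCaP16 were 8 against VCaP_ENZ and 2 against VCaP. With lists of equal length, the share of merged 5q regions called differed by −0.779 (exact permutation p = 0.0357), the 5q minus 5p share by 0.544 and the 5q minus 5p position by −0.540. Bins of peak share were again 1 higher and 3 lower, and regions lacking in VCaP16 were 42 against VCaP_DMSO, 26 against VCaP_ENZ and 13 against VCaP. With the 50% overlap, 0 bins of score position and 2 of score deviation were higher, 33 single regions lay further from and 13 nearer the top, and 0 members were lacking in VCaP16 against VCaP. Bins of 10 Mb gave 1 higher bin of score position. Ranks among all peaks gave a 5q score position difference of 0.305 (exact permutation p = 0.381).

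Asking for calls in 2 or more of 3 libraries on one side, and still for no call on the other, gave 145 members gained and 86 lost with ENZ, 226 gained and 102 lacking in VCaP16 against VCaP_DMSO, 168 and 107 against VCaP_ENZ, and 95 and 31 against VCaP. Without the 2 longest lists, which was added after seeing the data, these were 48 and 53 with ENZ, 67 lacking against VCaP_DMSO, 118 and 83 against VCaP_ENZ, and 47 and 20 against VCaP. In the same setting the 5q minus 5p share differed by 0.628, the 5q score position by 0.763 (exact permutation p = 0.381), the 5q minus 5p position by −1.06 and peak width by −6.90 bp, with 3 lower bins of peak share, 6 higher bins of score position and 144 and 68 single regions. Of the 24 region and pattern pairs named, 22 kept the pattern at a minimum score of 5, 23 with equal lists and 13 with the 50% overlap. For the counts of members, bins and single regions in this section the share over the genome was not computed. Larger counts under a looser rule therefore do not show a stronger change on 5q.

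Libraries with the same number did not deviate together: the 9 correlations ran from −0.00901 to 0.0488, against −0.0382 to 0.0214 for other pairs, and 7 of 18 comparisons were best with the library's own number. With the replicate block the differences remained −0.0727 for the 5q share of peaks and −1.41 for 5q minus other regions, each with an exact permutation p of 0.0741. The block changed no other call.

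With single libraries removed, the VCaP16 minus VCaP difference ranged from −0.0937 to −0.0573 for the 5q share (3-group exact permutation p 0.0214 to 0.0821), −0.0196 to 0.0529 for the 5q to 5p ratio, −0.601 to 0.609 for the 5q minus 5p share, −1.69 to −1.28 for 5q minus other regions, 0.377 to 1.59 for the 5q score position, −1.02 to 1.29 for the 5q minus 5p position, −9.58 to 13.4 bp for peak width and −0.0216 to −0.0129 for the peak share from 120 Mb. Bins without overlap numbered 0 to 2 higher and 1 to 5 lower for peak share, 1 to 5 higher and 0 to 1 lower for score position and 4 to 9 higher for score deviation. Single regions numbered 72 to 121 and 35 to 59. Members gained and lost with ENZ numbered 24 to 74 and 21 to 53, those gained and lacking in VCaP16 69 to 139 and 26 to 67 against VCaP_DMSO, 38 to 96 and 16 to 55 against VCaP_ENZ, and 21 to 53 and 5 to 18 against VCaP. The stretch from 110 to 145 Mb kept a ratio of 0.932 to 0.943.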
